A study of Homo sapiens with 8 samples.

Results

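The response to hIFNb, read here as human interferon beta, was described in the 2 clonal lines that carry a CRISPR guide against IRF1, by the histone mark H3K27ac. The comparison took every peak of the deposited table, 31961 in all, and set the libraries of clones 11 and 13 after hIFNb against the untreated libraries of the same clones, which is 4 of the 8 libraries of the study. All lines derive from CFPAC1, an established cell line of human pancreatic ductal adenocarcinoma. Clones 11 and 13 were isolated by dilution after infection with the plasmid lentiCRIPSv2 (spelled as in the labels) expressing wild-type Cas9 and a guide RNA to IRF1. Clones 1 and 4 went through infection with the plasmid, with no guide named, and serve as controls. Every clone gave 1 untreated library and 1 library after 2 hours of hIFNb, at a dose the labels do not give, and chromatin was precipitated with the Abcam antibody ab4729.

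Interferon beta binds the IFNAR receptor, whose kinases JAK1 and TYK2 activate STAT proteins. These join IRF9 in the complex ISGF3, which binds the interferon-stimulated response element (ISRE) in the promoters of antiviral genes. IRF1, itself an interferon-induced gene, encodes a factor that binds very similar elements, and many interferon-induced genes carry another element, the gamma-activated site (GAS). H3K27ac marks active promoters and enhancers. It does not measure RNA or protein, and the labels do not say whether clones 11 and 13 lack the IRF1 protein.

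Values are scores, the authors' normalised counts of reads in a peak, and changes are differences of log2(score + 1) with their standard error (SE). Calls are peaks with an adjusted p below 0.05 in limma. A promoter peak held the start of a protein-coding gene or lay within 2 kb of one. Other peaks carry the name of the nearest gene within 50 kb, which states a distance and not a target. Each clone is a separate line, but each is only 1 clone, and the column names number clones 11 and 1 as R1 and clones 13 and 4 as R2, so that a clone and that number cannot be told apart. The 9 promoter peaks of the ductal marker list had summed scores of 8001 and 8185 in untreated clones 11 and 13 and 8310 and 8104 with hIFNb, while KRT19 had no linked peak. The 6 promoter peaks of markers of other cell types summed to 1284 and 1449, and to 1067 and 1190 with hIFNb, while 13 of the 23 markers had a linked peak. A peak of 33.8 kb named for CPA1, an acinar enzyme gene, held most of that sum, with 860 and 981 in the untreated libraries. Its centre lay 16 kb from the CPA1 start, in the body of CPA5, so that its score is not that of the CPA1 promoter alone.

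Antiviral promoters gained H3K27ac in both IRF1-guide clones. At the peak shared by the starts of RSAD2, the viperin gene, whose product blocks the growth of many viruses, and CMPK2, a mitochondrial nucleotide kinase gene (chromosome 2, 6863716 to 6878834), clones 11 and 13 went from scores of 19 and 17 to 268 and 282. In all, 383 peaks rose, or 1.2% of those tested, and 8 fell, or 0.025%. A fit that takes clones as blocks, and so compares each with itself, gave 2379 rises (7.44%) and 2123 falls (6.64%), and all 391 peaks of the group-means model were among them. The libraries did not overlap in any of the 391, against 22.5% of all peaks above and 20.1% below without overlap. Leaving out 1 library changed the total of 391 to 44 without clone 11 with hIFNb, 122 without clone 13 with hIFNb, 188 and 233 without untreated clones 11 and 13, and 260 without control clone 1 with hIFNb. With the 4 IRF1-guide libraries alone, 41 peaks were called.

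The 383 rises ran from 0.70 to 5.36 with a median of 1.89, against a median of 0 over all peaks. Their median score was 27.5 untreated and 116 with hIFNb. The change was larger in clone 11 at 226 of them and in clone 13 at 157, and it differed between the clones by more than 1 on the log2 scale at 36. Among the rises, 129 (33.7%) were promoter peaks, against 28.8% of all peaks, and 110 had no protein-coding gene start within 50 kb. The rises were broad, with a median width of 7235 bp against 3550 bp over all peaks. Falls were broad too, with a median of 7018.5 bp at the 8 falls and 8513 bp at the 2123 falls with the block. At 43 of the rises both untreated libraries scored 5 or less, and 4 of these were promoter peaks. At the other end, 56 rises had a score of at least 100 in both untreated libraries, and their median change was 1.20.

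**Figure D1:**
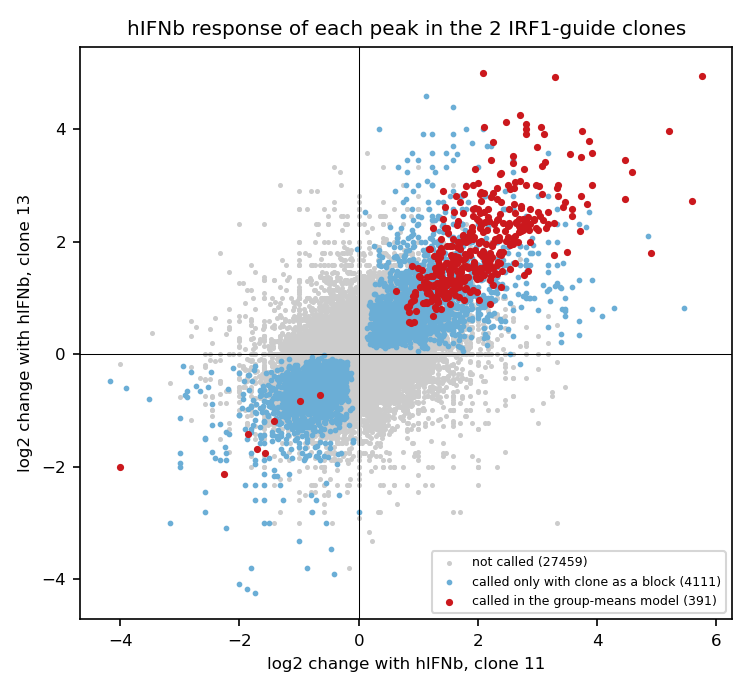
Change of each of the 31961 peaks with hIFNb in clone 11 (horizontal axis) and clone 13 (vertical axis), as a difference of log2(score + 1). Red points are the 391 peaks called in the group-means model, blue points those called only with the clone as a block and grey points the rest; 383 red points lie above 0 on both axes and 8 below.

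The ISRE letters were common among the promoters that rose, and a stretch of some of them is shown here so that the element can be seen beside the values that follow. Sequences are from RefSeq on GRCh38.p14, in the direction of the gene, and capitals mark the match to GAAANNGAAA on either strand, with N any base. The IFIT1, ISG15, PARP14, SHFL, DDX60, CXCL10 and SOCS1 stretches are from promoters that rose and carry the letters before the start. The IFNL1 and IFNL2 stretches are from interferon genes whose untreated scores were near 0.
IFIT1, chr10:89392505-89392544, plus strand: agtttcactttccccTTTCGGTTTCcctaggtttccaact
ISG15, chr1:1013375-1013414, plus strand: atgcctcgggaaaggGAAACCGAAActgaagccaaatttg
PARP14, chr3:122680795-122680834, plus strand: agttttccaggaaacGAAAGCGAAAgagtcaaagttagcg
SHFL, chr19:10086259-10086298, plus strand: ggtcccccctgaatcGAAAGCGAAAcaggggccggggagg
DDX60, chr4:168318781-168318820, minus strand: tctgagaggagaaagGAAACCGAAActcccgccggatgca
CXCL10, chr4:76023694-76023733, minus strand: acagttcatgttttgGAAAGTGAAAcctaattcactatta
SOCS1, chr16:11256293-11256332, minus strand: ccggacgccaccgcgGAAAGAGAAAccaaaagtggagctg
IFNL1, chr19:39296184-39296223, plus strand: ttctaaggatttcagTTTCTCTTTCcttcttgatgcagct
IFNL2, chr19:39268205-39268244, plus strand: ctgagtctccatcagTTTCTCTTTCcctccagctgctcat
The IFNL3 promoter holds the same stretch as IFNL2, on the minus strand.

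Promoters that rose held the ISRE letters more often than promoters in general. The window was 250 bases before to 50 after the start, and 123 of the 152 genes whose promoter peak rose (80.9%) had a sequence. The letters GAAANNGAAA, on either strand, were in 49 of these 123 (39.8%), against 3.28% of the genes with a tested promoter peak and 3.65% of all promoters in the table. The share was 7.18% for promoters that rose only with the clone as a block and 2.99% for those that fell with it. Among 39 genes whose promoter peak rose in control clones but was called in neither fit in IRF1-guide clones, 1 held the letters (2.56%). The GAS letters TTCNNNGAA were in 17 of the 123 (13.8%), against 6.43% of tested promoter peaks and 7.88% of all promoters. No match to the ISRE letters was in this window of HERC6, RSAD2, UBE2L6, HLA-C, HLA-B, PSMB8, STAT2 or RIGI. These shares are descriptions, with no test, and a match is not shown to be a bound site.

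Effectors that act on viruses directly rose at many of their peaks. Of 43 peaks linked to 32 of 34 antiviral effector genes, 22 rose and none fell, against rises at 1.2% of all peaks. With the clone as a block 29 rose, against 7.44% of all peaks. The median change over the 43 was 1.16 (0 over all peaks). All 30 promoter peaks of the list lay above 0 in the mean of the clones, 20 rose, and their median score went from 67 to 210. The count of 22 became 6 without clone 11 with hIFNb and 11 without clone 13 with hIFNb.

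The MX1 promoter peak (chromosome 21, 41414502 to 41429359) scored 79 and 63 untreated and 699 and 679 with hIFNb. MX1 encodes a dynamin-like GTPase that blocks influenza and other viruses, and both treated libraries lay far above the untreated ones (change 3.27 ± 0.24, SE, limma, adjusted p = 0.000369). At CMPK2/RSAD2, given above, the change was 3.86 ± 0.28 with the same adjusted p of 0.000369. The peak over the starts of IFIT1 and IFIT1B, from a family that binds foreign RNA ends, went from 165 and 141 to 838 and 752 (change 2.37 ± 0.16, limma, adjusted p = 0.000369). OAS3, which makes the second messenger that activates RNase L, went from 70 and 98 to 480 and 520, with no overlap (change 2.58 ± 0.20, limma, adjusted p = 0.000572). SHFL, an inhibitor of viral frameshifting, had low scores of 6 and 3 that became 57 and 65 (change 3.55 ± 0.39, limma, adjusted p = 0.00235). These 5 calls were kept whichever of the 8 libraries was left out.

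The ISG15 pathway, which attaches the ubiquitin-like protein ISG15 to other proteins, and the PARP and DTX3L enzymes of ADP-ribosylation rose at most of their promoters. Of the 13 peaks of this list 8 rose and none fell, against rises at 1.2% of all peaks, and the median was 1.87. With the block 11 rose, against 7.44% of all peaks. All 8 were promoter peaks, out of 10. HERC6, a HECT-type ligase gene, went from 30 and 27 to 361 and 330 (chromosome 4, 88370880 to 88386389; change 3.55 ± 0.25, limma, adjusted p = 0.000369). Its neighbour HERC5, the main ISG15 ligase in human cells, went from 13 and 3 to 77 and 69 (change 3.30 ± 0.49, limma, adjusted p = 0.0101). UBE2L6, the conjugating enzyme, went from 41 and 44 to 208 and 234, and USP18, the protease that removes ISG15 and restrains the receptor, from 25 and 45 to 128 and 123. In each of these the treated libraries lay above both untreated ones.

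The ISG15 promoter lies in a broad peak with the starts of AGRN and HES4, which scored 532 and 378 untreated and 1184 and 885 with hIFNb (change 1.19 ± 0.20, limma, adjusted p = 0.0169). PARP14, a macrodomain-containing ADP-ribosyltransferase gene, went from 96 and 97 to 294 and 288, and PARP10 from 48 and 58 to 300 and 253. HERC6, UBE2L6, PARP14 and PARP10 stayed called whichever library was left out. Without clone 11 with hIFNb the adjusted p was 0.113 at HERC5, 0.113 at USP18 and 0.187 at ISG15. Without clone 13 with hIFNb it was 0.0803 at HERC5 and 0.0853 at USP18, without untreated clone 11 it was 0.0545 at USP18, and without untreated clone 13 it was 0.112 at ISG15. The list kept 4 calls without clone 11 with hIFNb and 5 without clone 13 with hIFNb.

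Among sensors of viral nucleic acid 5 of 28 peaks rose and 2 fell, against 1.2% and 0.025% of all peaks, with a median of 0.39. With the block 13 rose and 3 fell, against 7.44% and 6.64% of all peaks. The 5 rises of the group-means model were among 15 promoter peaks, and its 2 falls lay inside gene bodies. The promoter peak of RIGI, which encodes a cytoplasmic sensor of viral RNA, went from 43 and 38 to 218 and 161 (change 2.18 ± 0.24, limma, adjusted p = 0.00222), a call kept whichever library was left out. The promoter peak of DDX60, a helicase gene that supports RIGI signalling, went from 68 and 43 to 260 and 242 (change 2.19 ± 0.35, limma, adjusted p = 0.0135). TRIM21, an intracellular antibody receptor gene, went from 13 and 6 to 53 and 68. A peak in the body of RIGI went the other way, from 71 and 43 to 14 and 9 (change -2.20, SE 0.38, limma, adjusted p = 0.0212). So did one within DDX60L, a paralogue of DDX60, from 217 and 256 to 72 and 75 (change -1.67, SE 0.23, limma, adjusted p = 0.00729).

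In control clones the same bodies scored 62 and 52 untreated and 18 and 11 with hIFNb at RIGI, and 236 and 175 and then 48 and 39 at DDX60L. Thus the direction was the same in all 4 clones. Without clone 11 with hIFNb the adjusted p was 0.135 at DDX60, 0.0813 at TRIM21, 0.0934 in the RIGI body and 0.0892 at DDX60L. Without clone 13 with hIFNb it was 0.0967, 0.0896, 0.153 and 0.0581 in the same order. Without untreated clone 13 it was 0.0965 at DDX60 and 0.0582 at DDX60L, and without untreated clone 11 it was 0.178 in the RIGI body. The 7 calls of the list became 1, 2 and 4 without clone 11 with hIFNb, clone 13 with hIFNb and untreated clone 11.

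The genes of the signalling chain changed only in part. Of 31 peaks of interferon receptors, JAKs and STATs 2 rose and none fell, against rises at 1.2% of all peaks, with a median of 0.35. With the block 4 rose and 2 fell, against 7.44% and 6.64% of all peaks, so that the falls were close to that background. The promoter peak of STAT2, a subunit of ISGF3, went from 62 and 54 to 223 and 161 (change 1.69 ± 0.23, limma, adjusted p = 0.00707), and both treated libraries lay above both untreated ones. The kinase gene JAK1, with 31 and 36 and then 62 and 61, did not pass (adjusted p = 0.147) but passed with the block (adjusted p = 0.00599). The call at STAT2 was lost without clone 11 with hIFNb (adjusted p = 0.0963), which left 1 in the list.

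Among interferon regulatory factors 3 of 18 peaks rose and none fell (1.2% of all peaks rose), or 6 and 3 with the block (7.44% and 6.64%), with a median of 0.37. IRF9, the DNA-binding part of ISGF3, went from 102 and 104 to 346 and 333 (change 1.71 ± 0.22, limma, adjusted p = 0.00535). IRF7, which amplifies interferon production, went from 33 and 30 to 150 and 103 (change 1.95 ± 0.30, adjusted p = 0.0103). The IRF1 gene itself lies in a peak of very high score, which went from 1332 and 1187 to 2265 and 2033. That is a change of 0.77 ± 0.21 that did not pass in the group-means model (limma, adjusted p = 0.152). It passed with the clone as a block (adjusted p = 1.03e-09). The change of 0.65 in control clones did not pass either (limma, adjusted p = 0.119) and passed with the block (1.78e-08). This peak is 64.2 kb wide and its centre lies 16.5 kb from the IRF1 start, so its score is not that of the promoter alone. Without clone 11 with hIFNb the adjusted p was 0.0829 at IRF9 and 0.135 at IRF7, without untreated clones 11 and 13 it was 0.0581 and 0.0671 at IRF7, and the list had 0 calls without clone 11 with hIFNb and 1 without either untreated clone.

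Feedback inhibitors gave 2 rises in 30 peaks, at USP18, given above, and SOCS1, against 1.2% of all peaks, with a median of 0.13. With the block there were 4 rises and 1 fall, against 7.44% and 6.64% of all peaks, which puts the falls below that background. SOCS1, an inhibitor of JAK kinases, went from 41 and 33 to 152 and 120 (change 1.85 ± 0.26, limma, adjusted p = 0.0082). The control clones went from 32 and 38 to 291 and 204 at the same peak, so that the treated IRF1-guide libraries lay below both treated control ones. The difference between the responses at SOCS1 did not pass (-0.92, adjusted p = 0.13 with the block). The call at SOCS1 was lost without clone 11 with hIFNb (adjusted p = 0.112) and without untreated clone 13 (adjusted p = 0.0568). The list had 0 calls without clone 11 with hIFNb and 1 without any other IRF1-guide library.

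**Figure D2:**
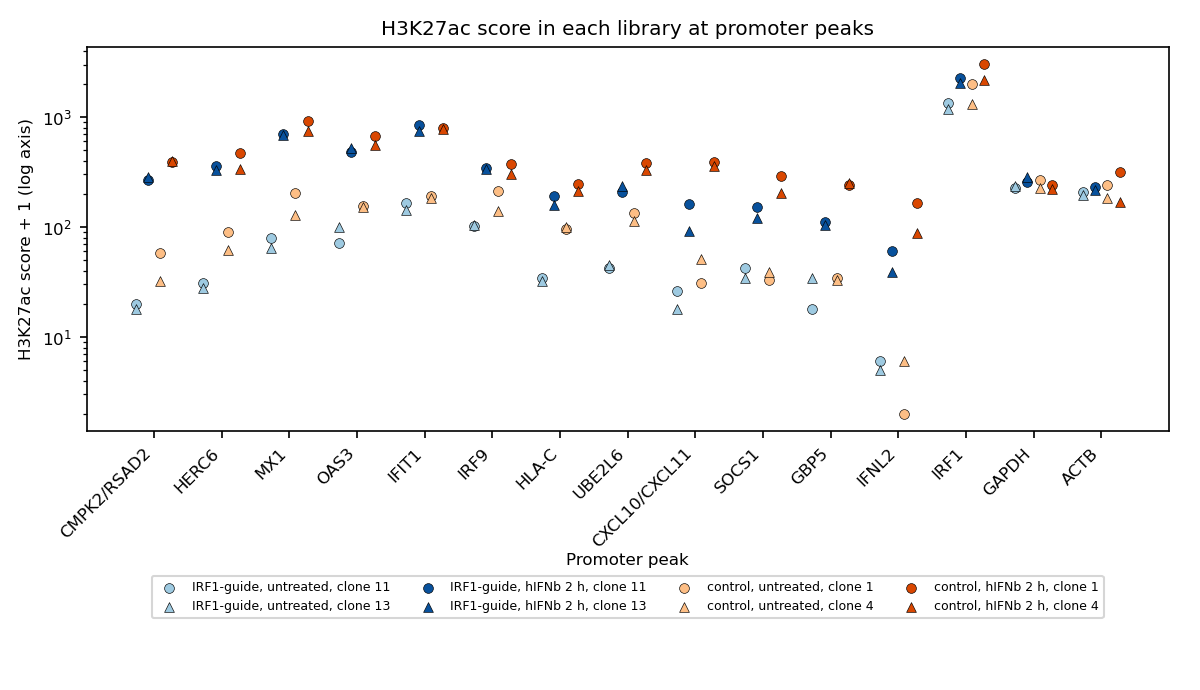
H3K27ac score plus 1 on a log axis in each of the 8 libraries at 15 promoter peaks; blue points are IRF1-guide clones, orange points control clones, dark points the libraries after 2 hours of hIFNb. At MX1 the IRF1-guide clones went from 79 and 63 to 699 and 679, while GAPDH and ACTB did not pass the test.

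The type III interferon genes, whose products act on epithelia through their own receptor, gained H3K27ac from almost none. IFNL1 was listed at 0 in both untreated IRF1-guide libraries and scored 21 and 10 with hIFNb. IFNL2 went from 5 and 4 to 59 and 38, and IFNL3 from 7 and 4 to 62 and 39; these genes are near-identical copies, so that reads may be split between them. The adjusted p in limma was 0.011, 0.0194 and 0.0158 in that order. Over all peaks 1.2% rose in the group-means model and 7.44% with the block. In control clones the treated libraries scored 84 and 50 at IFNL1, 163 and 87 at IFNL2 and 177 and 88 at IFNL3, above both treated IRF1-guide libraries at each gene. The differences of response at IFNL1, IFNL2 and IFNL3 were -0.42, -1.97 and -1.90 and did not pass with the block (limma, adjusted p = 0.889, 0.155 and 0.125). Without clone 11 with hIFNb the adjusted p of the rise was 0.142, 0.211 and 0.184. Without clone 13 with hIFNb it was 0.0896 at IFNL2 and 0.072 at IFNL3, without untreated clone 11 it was 0.0604 at IFNL1 and 0.0909 at IFNL2, and without untreated clone 13 it was 0.0537, 0.104 and 0.0965. All 4 peaks of the interferon gene list rose with the block and 3 in the group-means model, which became 0 without clone 11 with hIFNb or untreated clone 13 and 1 without clone 13 with hIFNb or untreated clone 11.

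Chemokine and cytokine genes gave 4 rises and no fall in 31 peaks, against rises at 1.2% of all peaks, with a median of 0.55. With the block 12 rose and 5 fell, both larger shares than the 7.44% and 6.64% of all peaks. The peak over CXCL10 and CXCL11, chemokines that draw T cells through CXCR3, went from 25 and 17 to 161 and 91 (chromosome 4, 76020332 to 76037768; change 2.50 ± 0.34, limma, adjusted p = 0.00691). The control clones went from 30 and 50 to 389 and 361 there. The difference between the responses did not pass (-0.74, limma, adjusted p = 0.263 with the block). IL32, a proinflammatory cytokine gene, went from 41 and 45 to 137 and 125 (change 1.58 ± 0.23, adjusted p = 0.00848). In the GBP and APOL list, GTPases and lipoproteins that attack intracellular pathogens, 2 of 15 peaks rose, with a median of 0.68. With the block 9 rose, and the shares over all peaks were 1.2% and 7.44% in the 2 fits. The GBP5 promoter went from 17 and 33 to 110 and 103 (change 2.12 ± 0.30, limma, adjusted p = 0.00794), and in control clones from 33 and 32 to 240 and 252. The difference at GBP5 did not pass either (-0.76, limma, adjusted p = 0.297 with the block). GBP1, with 74 and 102 and then 176 and 225, passed only with the block (adjusted p = 6.92e-07, and 0.0595 without it). Without clone 11 with hIFNb the adjusted p was 0.0913 at CXCL10, 0.109 at IL32 and 0.0963 at GBP5. Without clone 13 with hIFNb it was 0.0644 at both IL32 and GBP5, and without untreated clone 11 it was 0.0604 at IL32. The chemokine list had 0 to 2 calls with any library but untreated clone 13 left out, and the GBP and APOL list 0 or 1 with any but untreated control clone 4.

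Genes of peptide presentation by MHC class I rose in part. Of 41 peaks 9 rose and none fell, against rises at 1.2% of all peaks, with a median of 0.35. All 9 were among the 19 promoter peaks. With the block 16 rose and 1 fell, against 7.44% and 6.64% of all peaks. HLA-C went from 33 and 31 to 191 and 156 (change 2.40 ± 0.21, limma, adjusted p = 0.000938), and HLA-E, a ligand of natural killer receptors, from 41 and 34 to 170 and 180 (change 2.20 ± 0.21, adjusted p = 0.00117). HLA-B went from 39 and 28 to 225 and 139, and the shared peak of PSMB8, an immunoproteasome subunit gene, and TAP2, a peptide transporter gene, from 98 and 112 to 337 and 286. The treated libraries lay above the untreated ones at each of these peaks. HLA genes are similar in sequence, so that their scores are uncertain. Without clone 11 with hIFNb the list had 2 calls and the adjusted p was 0.0519 at HLA-B and 0.0648 at PSMB8, and without clone 13 with hIFNb the list had 5 calls.

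Complement genes gave 3 rises in 15 peaks, against 1.2% of all peaks, with a median of 0.17. With the block 6 rose, against 7.44% of all peaks. CFB, the protease of the alternative pathway, went from 49 and 45 to 207 and 225 (change 2.18 ± 0.22, limma, adjusted p = 0.00166), a call kept whichever library was left out. C4A, which has the near-identical copy C4B, went from 23 and 17 to 147 and 150, and C1S, a protease of the classical pathway, from 13 and 3 to 66 and 54. The C4A and C1S calls were lost without clone 11 with hIFNb (adjusted p = 0.0689 and 0.209), and C1S also without clone 13 with hIFNb (0.125) or untreated clone 13 (0.0704). In the list of immune checkpoints and cell death 11 of 38 peaks rose and none fell, with a median of 0.71. With the block 21 rose, and the shares over all peaks were 1.2% and 7.44% in the 2 fits. SP100, a nuclear body gene of that list, went from 184 and 145 to 465 and 464 (change 1.50 ± 0.18, adjusted p = 0.0034, or 0.0607 without clone 11 with hIFNb). That list had 0, 2, 3 and 6 calls without clone 11 with hIFNb, clone 13 with hIFNb, untreated clone 13 and untreated clone 11, and 7 without either treated control library. The complement list had 1 without clone 11 with hIFNb.

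Metabolic and epithelial genes were mostly outside the calls. No peak was called among 25 of cholesterol synthesis, 45 of fatty acid and lipid synthesis, 29 of glycolysis, 39 of the TCA cycle and respiratory chain, 63 of the low-grade epithelial list, 25 of ductal identity, 24 of NF-kB and acute phase, 26 of other cell types and 19 of housekeeping genes. With the clone as a block limma called 2 and 0 rises and falls in cholesterol synthesis, 2 and 1 in fatty acid synthesis, 4 and 1 in glycolysis, 1 and 0 in the TCA cycle, 3 and 7 in the low-grade list, 2 and 1 in ductal identity, 2 and 1 in NF-kB and acute phase, 1 and 6 in other cell types and 1 and 0 in housekeeping genes. Against the block's 7.44% and 6.64% of all peaks, the rises of glycolysis and the falls of the low-grade and other cell type lists had larger shares. The rises of cholesterol synthesis, ductal identity and NF-kB peaks were near the background, and the other counts were below it. GAPDH scored 224 and 237 untreated and 255 and 285 with hIFNb (adjusted p = 0.63), and ACTB 208 and 196 and then 228 and 218 (adjusted p = 0.859).

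Xenobiotic metabolism was the metabolic list with calls, 2 rises in 45 peaks against 1.2% of all peaks, with a median of 0.16. With the block 7 rose and 5 fell, against 7.44% and 6.64% of all peaks. CYP1A1, a target of the aryl hydrocarbon receptor, went from 11 and 21 to 134 and 77 (change 2.66 ± 0.38, limma, adjusted p = 0.0082), and CYP2J2, an epoxygenase gene, from 6 and 4 to 25 and 23 (change 2.08 ± 0.43, adjusted p = 0.0476). The CYP1A1 call was lost without clone 11 with hIFNb (adjusted p = 0.112) and without untreated clone 11 (0.0568). The CYP2J2 call was lost without any 1 of the 4 IRF1-guide libraries (0.113 to 0.29) and without control clones 1 and 4 with hIFNb (0.0852 and 0.0867). The list had 0 calls without either library of clone 11 and 1 without either of clone 13 or a treated control. In the cell cycle list 1 of 31 peaks rose, a single call against 1.2% of all peaks, and 4 with the block against 7.44%. It lay in the body of BUB1, a spindle checkpoint gene, where scores went from 38 and 37 to 131 and 93, and the call was lost without untreated clones 11 and 13 (0.0709 and 0.0689) and clone 11 with hIFNb (0.146). In the high-grade list 1 of 36 rose, again a single call, and with the block 2 rose and 2 fell, both below the 7.44% and 6.64% of all peaks. The call was near SNAI1, a driver of epithelial-mesenchymal transition, where scores went from 109 and 139 to 275 and 265. It was lost without any 1 of the 4 IRF1-guide libraries (0.06 to 0.233) and without control clones 1 and 4 with hIFNb (0.0579 and 0.0554).

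**Figure D3:**
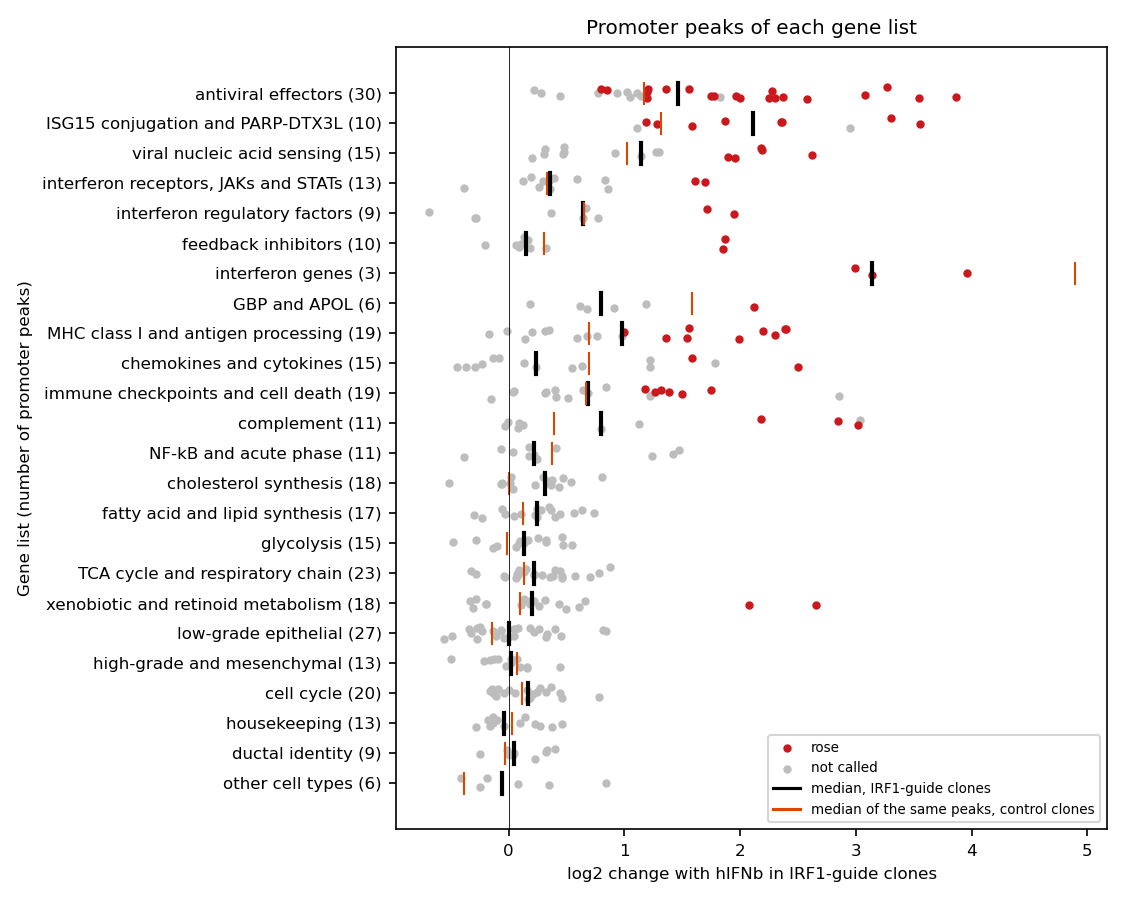
Change with hIFNb in IRF1-guide clones of each promoter peak, by gene list, with the number of promoter peaks in brackets; red points rose, grey points were not called, black bars are the medians in IRF1-guide clones and orange bars those of the same peaks in control clones. Antiviral effectors had 20 red points of 30, and housekeeping genes none of 13.

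The rise with the largest change of all lay far from any start of a protein-coding gene. It sat in the body of LINGO1 (chromosome 15, 77609005 to 77617295) and went from 2 and 3 to 162 and 123 (change 5.36 ± 0.42, limma, adjusted p = 0.000572). A peak on chromosome 4 (63933824 to 63942834), in no gene body, went from 2 and 7 to 110 and 125 (change 4.59 ± 0.42, adjusted p = 0.000938). A peak on chromosome 11 (78642997 to 78650290) went from 9 and 10 to 144 and 152, and one linked to SNX20, which encodes a sorting nexin, from 15 and 10 to 126 and 140. All 4 stayed called whichever library was left out, and the control clones scored at least 109 with hIFNb at each of them. Some rises lay together: 90 of the 383 (23.5%) had another within 100 kb, and 16 groups of 3 or more held 52 of them. The group at the IFIT genes on chromosome 10 held 5 rises of 7 peaks, the group at SP110, SP140, SP140L and SP100 on chromosome 2 held 4 of 5, and the group at PPM1K, HERC6, HERC5 and PIGY on chromosome 4 held 4 of 8.

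Falls were few in the group-means model, and none of the 8 was at a promoter. The count of falls was 22 with no mean-variance trend, 0 without clone 11 with hIFNb, 1 and 2 without untreated clones 11 and 13, 5 without clone 13 with hIFNb and 4 without any 1 control library. Besides RIGI and DDX60L, a peak in the body of EHD4 (linked to SPTBN5) went from 971 and 1036 to 616 and 624, and a narrow peak in ZMYM4 from 15 and 11 to 0 and 2. The EHD4 call was lost with each of the 8 libraries left out (adjusted p = 0.0723 to 0.248). The ZMYM4 call was lost without each but clone 13 with hIFNb (0.0796 to 0.25). Of the 2123 falls with the clone as a block, 165 (7.77%) were promoter peaks, against 28.8% of all peaks, and their median change was -0.62. One near FOXA1, the gene of a factor that opens chromatin in endoderm, had 40 and 33 untreated and 14 and 12 with hIFNb (limma, adjusted p = 0.0608, and 0.00234 with the block).

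Set beside the control clones, whose libraries are separate, most rises of the IRF1-guide clones were rises there too. A smaller share of the control rises was called in IRF1-guide clones in the group-means model. Control clones had 1300 rises (4.07%) and 216 falls (0.676%), or 4271 and 3596 with the block (13.4% and 11.3%). Their total of 1516 became 206 and 402 without control clones 1 and 4 with hIFNb, and 489 and 496 without the untreated ones. The 329 shared rises were 85.9% of those of IRF1-guide clones and 25.3% of those of control clones. In direction, 390 of the 391 calls in IRF1-guide clones were the same in control clones. The adjustment was made for each comparison separately. Fewer peaks were called in IRF1-guide clones, so the same adjusted p asked for a smaller unadjusted p there. The 25.3% is therefore not the share of control rises that responded in IRF1-guide clones. Of 54 rises not called in control clones, 43 were called there with the block.

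Over the 1300 control rises the median change was 1.87 in the clones they were called in and 1.00 in IRF1-guide clones, with 1.13 in clone 11 and 0.91 in clone 13. These peaks were chosen on the control values, which raises the control median, so that the pair of medians is a description. Over the 383 rises chosen on the IRF1-guide values the medians were 1.89 in IRF1-guide clones and 1.74 in control clones. Of the 1300 control rises, 154 passed with the block as smaller in IRF1-guide clones and 7 as larger, and 0 peaks passed in the group-means model. The choice on control values favours smaller over larger here too. Over all peaks, with no such choice, the difference passed with the block below 0 at 210 (0.657%) and above 0 at 34 (0.106%). The direction was the same in 1239 of the 1300, and in both IRF1-guide clones in 1131. At the 259 promoter peaks among them the medians were 1.40 in control and 1.14 in IRF1-guide clones. Of these, 109 (42.1%) were called in IRF1-guide clones, or 216 (83.4%) with the block. At the other 1041 the medians were 1.97 and 0.99, and 220 (21.1%) were called, or 586 (56.3%) with the block. Both sets were chosen on control values and differ in their control medians, so the contrast between them is a description as well.

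**Figure D4:**
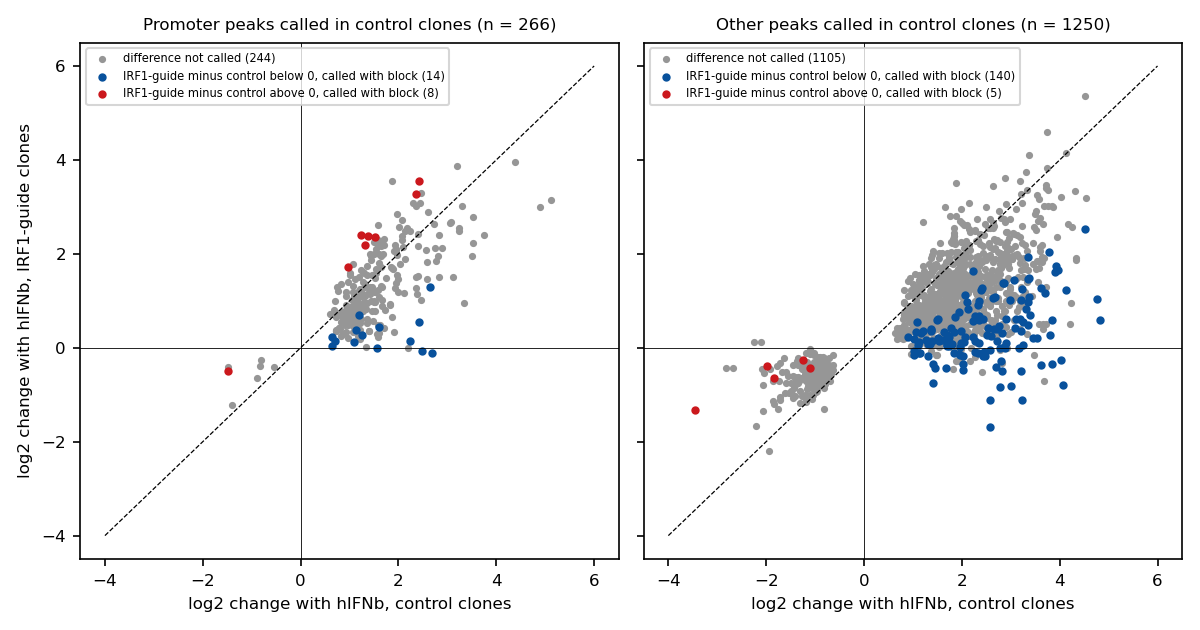
Change with hIFNb in control clones (horizontal axis) and in IRF1-guide clones (vertical axis) at the peaks called in control clones, 266 promoter peaks on the left and 1250 other peaks on the right; the dashed line marks equal change. Blue and red points are peaks whose difference between the responses passed with the clone as a block; blue points number 14 on the left and 140 on the right.

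The test of the difference between the responses called 0 peaks in the group-means model (limma, 1258 at an unadjusted p under 0.05, smallest adjusted p = 0.599). With the clone as a block 244 were called, 34 with IRF1-guide minus control above 0 (0.106%) and 210 below 0 (0.657%). Of the 210, 20 (9.52%) were promoter peaks, and their median score went from 40.75 to 46.5 in IRF1-guide clones and from 38.25 to 132.25 in control clones. A peak linked to SPRY4, an inhibitor of growth factor signalling, went from 39 and 47 to 55 and 59 in IRF1-guide clones and from 34 and 54 to 329 and 253 in control clones (difference -2.32, adjusted p = 0.000155 with the block). One linked to STX18, an endoplasmic reticulum syntaxin gene, went from 86 and 100 to 106 and 118, and in control clones from 186 and 174 to 586 and 590 (difference -1.44, adjusted p = 0.000155 with the block). One linked to ARRDC3, an arrestin-domain gene, scored 2 and 6 and then 7 and 5, against 3 and 1 and then 89 and 70 (difference -4.22, adjusted p = 0.0052 with the block). At these 3 peaks the treated IRF1-guide libraries lay far below the treated control ones. They were named for a small p of a difference below 0, so this gap and the medians of the 210 are no separate result.

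Of the 34 with a difference above 0, 18 (52.9%) were promoter peaks, and 17 fell in control clones with the block. The 34 included HERC6, MX1, UBE2L6, IRF9, DDX60, HLA-B and HLA-C, where both genotypes rose. At DDX60 the rise in control clones was called only with the block (limma, adjusted p = 5.12e-06, and 0.0945 without it). At HERC6 the control clones went from 89 and 61 to 471 and 338 (difference 1.13, adjusted p = 0.00663 with the block), at MX1 from 202 and 127 to 918 and 742 (difference 0.91, adjusted p = 0.00663) and at HLA-C from 95 and 99 to 245 and 213 (difference 1.17, adjusted p = 0.0124). At each the untreated IRF1-guide libraries lay below both untreated control ones. That the mean gap was wider untreated than with hIFNb follows from a difference above 0 and is no separate result. Over the 34 the median score went from 69 to 186.25 in IRF1-guide clones and from 116.5 to 158.25 in control clones.

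Untreated scores were also lower in IRF1-guide clones over much of the antiviral list, which includes MX1. At 24 of its 30 promoter peaks both untreated IRF1-guide libraries scored below both untreated control ones, against 19.8% of all promoter peaks, and with hIFNb this was so at 12, against 17.6%. The median promoter score of the list was 67 untreated and 210 with hIFNb in IRF1-guide clones, and 91.5 and 253.5 in control clones. In the ISG15 list it was so at 9 of 10 untreated and 6 of 10 with hIFNb, and the median score went from 45.25 to 248.75 against 87.25 to 298. In the MHC class I list it was so at 13 of 19 and 15 of 19. Among 13 housekeeping promoters it was so at 0 untreated and 2 with hIFNb.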

How the data were processed

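H3K27ac was measured by chromatin immunoprecipitation and sequencing in 8 libraries, 2 clones in each of 4 groups. Bowtie2 and GRCh38 (hg38) are named per the submitters' processing notes. The sources used here do not give the peak caller, the counter or the scaling. The deposited table gives each peak a score per library, a count that the authors normalised and rounded to whole numbers, so the depth in reads is unknown. Total scores ran from 3277561 to 3317881 in IRF1-guide libraries.

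log2(score + 1) was fitted in limma 3.58.1 (R 4.3.3) as a group-means model of the 8 libraries, with moderated variances that follow a trend on the mean score, and p-values were adjusted by Benjamini-Hochberg over 31961 peaks. With 2 clones a group, p-values of the group-means model rest on the spread between clones, pooled over the 4 groups. That pool includes the control clones, so that their libraries bear on the calls in IRF1-guide clones. With the clone as a block, p-values rest on how far the change with hIFNb varied between clones of the same genotype. The fit with the clone as a block rests on the same clone giving both libraries; deviations from the group means of libraries from the same clone correlated at 0.392 across peaks in IRF1-guide and 0.437 in control clones. The fits were tested on simulated data under 2 noise models. The fit with the block recovered no planted change under the noise model tried first, which assumed very unequal spread between peaks. It recovered most under the other, which was added after that outcome. Counts with the block thus depend on how the spread is modelled. The group-means model missed many planted changes under both, so a peak not called may still have changed.

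Gene starts came from RefSeq promoters (15843 genes) or were rebuilt from distances in the deposited table; 27043 of 29099 names (92.9%) matched RefSeq, 9202 peaks were promoter peaks and 19843 were linked. Gene lists, members and tests were chosen with earlier results of these data known. Named genes were those with the largest called changes, up to 4 of smallest p per list, those of smallest p for the difference between the responses, and IRF1, IRF9, ISG15, GAPDH and ACTB. Not every gene taken this way is reported here. Alternatives covered the block, the pseudocount, scaling, filters, trend and each library left out.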

Additional observations from a re-analysis of the deposited data

Results flagged for a closer look

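At 17 named peaks the difference between the responses (IRF1-guide minus control, log2 scale) passed in limma with the clone as a block, and at none of them in the group-means model. It was above 0 at HERC6 (1.13), MX1 (0.91), UBE2L6 (0.83), IRF9 (0.74), DDX60 (1.03), HLA-B (1.00), HLA-C (1.17), MAP3K6 (1.91), and peaks linked to HCAR2 (1.50) and SLC35D3 (3.32). At MAP3K6, HCAR2 and SLC35D3 the change in control clones was -0.67, -0.79 and -1.84, which did not pass in the group-means model (limma, adjusted p = 0.297, 0.145 and 0.126). With the block it passed at HCAR2 and SLC35D3 (limma, adjusted p = 0.0112 and 0.0174) but not at MAP3K6 (0.113). It was below 0 at peaks linked to STX18 (-1.44), DIP2B (-1.94), IRF8 (-1.99), SPRY4 (-2.32), BMPR1A (-3.53), GRAMD1C (-3.62) and ARRDC3 (-4.22). The peak linked to IRF8 also rose in IRF1-guide clones, from 7 and 4 to 54 and 23, and in control clones from 8 and 7 to 220 and 168. Its call in IRF1-guide clones was lost without untreated clones 11 and 13 (limma, adjusted p = 0.051 and 0.116), clone 11 with hIFNb (0.198) and control clone 1 with hIFNb (0.0507). What sets these differences was not tested.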

How the results depend on the processing

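With the clone as a replicate block, the counts of called peaks were 4502 in IRF1-guide clones, 7867 in control clones and 244 for the difference between the responses, against 391, 1516 and 0. With the 4 libraries of 1 genotype alone they were 41 and 917. Leaving out 1 library gave 44 to 339 calls in IRF1-guide clones and 206 to 1489 in control clones, and 0 for the difference each time. Other pseudocounts, scalings, filters, a minimum change and no trend kept the 3 total counts within 1.5 times, though without the trend 22 of the calls in IRF1-guide clones were falls, against 8. The change at the peak linked to ARRDC3 ranged from -0.015 without untreated IRF1-guide clone 11 to 1.21 without untreated clone 13; the cause was not tested. Of the 62 named peaks called in IRF1-guide clones, 19 stayed called with every library left out in turn. The depth in reads is unknown, 2 clones a group limit every test, and peaks with a low score rest on few reads.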
